A study of Mus musculus with 11 samples.

Results

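Leukocyte adhesion molecules are the surface proteins by which blood leukocytes are caught, held and passed through the vessel wall. The 9 genes described here are Sele, Selp, Selplg, Icam1, Icam2, Vcam1, Madcam1, Cd44 and Sdc4, taken by gene symbol from the count tables of mouse pancreas (54532 genes) and adipose tissue (46078 genes), and all 9 are in both tables. In the leukocyte adhesion cascade, selectins on activated endothelium and platelets bind sugar-decorated ligands such as PSGL-1 and let leukocytes roll. Integrins on the leukocyte then bind immunoglobulin superfamily proteins such as ICAM-1 and VCAM-1, which brings firm adhesion, and the cells cross the junctions between endothelial cells. In acute pancreatitis, neutrophils that enter by this route are a known part of the tissue injury, and adipose tissue of obese animals is a known site of leukocyte entry.

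RNA was sequenced from wild type male C57BL/6 mice (C57BL/6J in the study's methods) aged 16 weeks, with 2 control and 3 obesity-related alcohol-induced acute pancreatitis (OA-AP, "Model" in the labels) libraries of pancreas and 3 of each from epididymal adipose tissue. Control mice received a diet with 10 kcal% fat for 12 weeks and saline, and OA-AP mice received 60 kcal% fat for 12 weeks and ethanol at 2 g/kg, in each case as 2 intraperitoneal injections 1 h apart, with tissue taken at 12 h. Diet, ethanol and pancreatitis therefore changed together and cannot be told apart. Libraries held 14188832 to 17238919 counts in the pancreas and 20825177 to 27928097 in adipose tissue. The labelled tissues carried their markers, in CPM (read counts normalised to a scaled library size). The 10 acinar genes, which encode digestive enzymes, summed to 616500 to 722700 CPM in control pancreas and 281300 to 359200 in OA-AP pancreas. The 7 adipocyte genes summed to 26060 to 29720 CPM in adipose tissue. A pair of libraries stood apart. OA-AP pancreas replicate 3 had a neutrophil marker sum of 109.7 CPM against 14.4 and 4.69 in the other OA-AP pancreas libraries, and control adipose replicate 2 had an acinar marker sum of 5492 CPM against 7.76 to 16.1 in the other adipose libraries. CPM were scaled by TMM factors, set separately in each tissue, so sums of CPM are not plain shares of the reads. The factors were 0.793 and 0.698 in control pancreas, 1.11 to 1.32 in OA-AP pancreas and 0.927 to 1.06 in adipose tissue. A gene was called at a fold change of at least 1.5 and a Benjamini-Hochberg adjusted p under 0.05. That p came from edgeR's quasi-likelihood test over all genes tested.

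In adipose tissue of OA-AP mice, 5 of the 9 genes rose and none fell. They were Sele (23.9-fold), Sdc4 (13.4-fold), Selp (6.29-fold), Cd44 (4.79-fold) and Icam1 (1.68-fold). Selplg, Icam2, Vcam1 and Madcam1 were not called there. The 5 called genes were also those at an unadjusted p under 0.05, where 47.4% of all genes were, and all 5 stayed called without control replicate 2. Of all 15839 genes tested in adipose tissue, 25.1% were called in either direction and 12.1% were called higher. In the pancreas 7 of the 9 genes had enough counts to be tested and edgeR called none of them, against 29.8% of all 12884 genes. At an unadjusted p under 0.05 edgeR gave 2 of the 7, Selp and Sdc4 (44.8% of all genes). DESeq2, the test used in the paper, called 3, Selp, Cd44 and Sdc4. The median log2 fold change of the members tested was 0.75 in adipose tissue, where that of all genes tested was -0.01, and 0.70 in the pancreas, where that of all genes was 0.04.

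**Figure D1:**
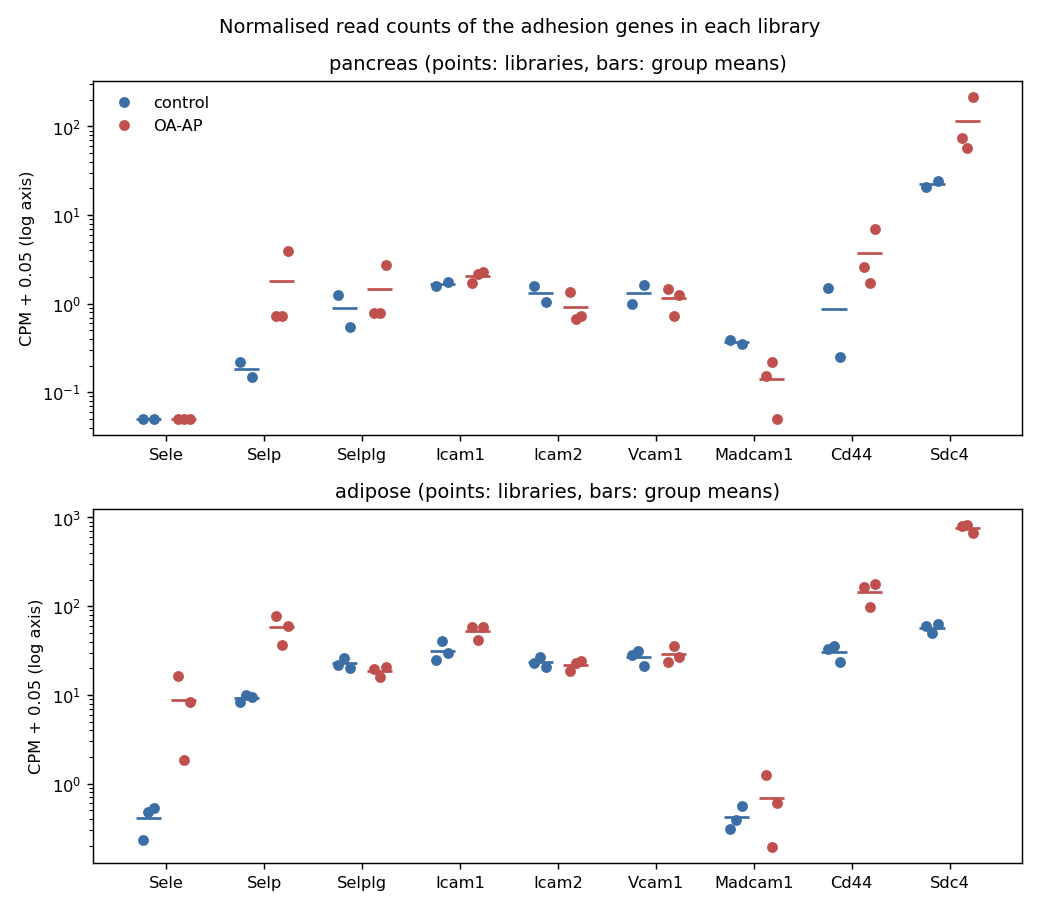
CPM + 0.05 on a log axis for each gene, with a point for every library and a bar for the group mean, control in blue and OA-AP in red, pancreas above and adipose tissue below. In adipose tissue the OA-AP points of Sele, Selp, Icam1, Cd44 and Sdc4 lie above all control points, and in the pancreas those of Selp, Cd44 and Sdc4 do, while Sele is at 0 in all 5 pancreas libraries.

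Promoter sequences are shown for the selectins, since Sele and Selp lie close together on chromosome 1 and both rose in adipose tissue. The RefSeq sequences (GRCm38.p6) run 5′ to 3′ from 250 bases before to 50 after the annotated start, and capitals mark every match on either strand to TATAAA (the TATA box), TGANTCA (the AP-1 element), TTCNNNGAA (the STAT element) or the NF-kB consensus. The table held 6 of the 9 members and 32851 promoters in all, of which 13.6% held TATAAA, 7.81% TGANTCA, 8.3% TTCNNNGAA and 8.46% the NF-kB consensus.
Sele (chr1:164047984-164048283, plus strand): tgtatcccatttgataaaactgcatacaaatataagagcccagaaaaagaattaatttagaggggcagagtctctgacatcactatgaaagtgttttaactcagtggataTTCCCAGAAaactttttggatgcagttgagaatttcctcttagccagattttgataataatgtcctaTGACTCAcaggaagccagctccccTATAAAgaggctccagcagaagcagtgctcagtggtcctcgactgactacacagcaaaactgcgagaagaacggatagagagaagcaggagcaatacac
Selp (chr1:164115014-164115313, plus strand): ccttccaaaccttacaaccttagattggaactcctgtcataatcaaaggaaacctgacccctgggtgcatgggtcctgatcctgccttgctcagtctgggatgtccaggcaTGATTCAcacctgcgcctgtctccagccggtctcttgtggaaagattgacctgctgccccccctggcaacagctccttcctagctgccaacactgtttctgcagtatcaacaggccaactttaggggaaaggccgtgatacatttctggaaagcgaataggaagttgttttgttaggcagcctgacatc
The Sele window held TATAAA beginning 49 bases before the start, TGACTCA at 73 and TTCCCAGAA at 140, and the Selp window held TGATTCA at 139. These matches are letters in the window, with no binding measured.

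Sele encodes E-selectin, which endothelial cells make anew when they are activated (ENSMUSG00000026582, GRCm38 chr1:164048234-164057677, plus strand). In adipose tissue it had 5, 10 and 14 counts under control and 313, 37 and 166 under OA-AP, or 0.362 ± 0.156 CPM (SD, n = 3) and 8.79 ± 7.23 CPM (n = 3). The groups did not overlap, although OA-AP replicate 2 was much lower than the other OA-AP libraries. Sele rose by 4.58 on the log2 scale (SE 0.87, edgeR adjusted p = 0.00855), with a 95% interval of 2.50 to 6.66. Without OA-AP replicate 1 the rise was 3.80 and was still called (edgeR adjusted p = 0.0136). In the pancreas Sele had no count in any of the 5 libraries. A count of 0 in a single library allows up to 3 counts. That is 0.299 CPM in the control library with the highest such limit and 0.172 CPM in the OA-AP library with the highest. Within a single library, a level below its limit cannot be told from 0. These limits, and the counting intervals given below, cover counting error only.

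Selp encodes P-selectin, stored in endothelial cells and platelets and brought to the surface on activation (ENSMUSG00000026580, chr1:164115264-164150026, plus strand). It had 8.30, 9.92 and 9.33 CPM in control adipose tissue and 77.3, 36.6 and 59.4 CPM in OA-AP adipose tissue. Every OA-AP library was above every control library, and replicate 2 was again the lowest of the OA-AP group. The rise was 2.65 on the log2 scale (SE 0.27, edgeR adjusted p = 0.00114). In the pancreas Selp had 2 and 1 counts under control and 13, 12 and 74 under OA-AP. The OA-AP libraries were all higher, and replicate 3 held most of the OA-AP counts. Summed over libraries, the 99 OA-AP against 3 control counts gave a ratio of 12.9 per scaled library size, with a 95% counting interval of 4.27 to 63.4. The fitted log2 fold change was 3.59 (SE 1.22) and missed the threshold (edgeR adjusted p = 0.0580), while DESeq2 called it (adjusted p = 0.0114). Without OA-AP replicate 3 it was 2.19 and was called (edgeR adjusted p = 0.0289). Without control replicate 1 or 2 it was 4.04 or 3.30, each from a fit with 1 control library. Reads from antisense genes that overlap Selp could add to its counts, since the strand setting of the counting is not given in the sources used here. The pair of such genes, Gm16587 and Gm16548, had at most 16 counts each in any library.

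Selplg encodes PSGL-1, a leukocyte ligand of the selectins (ENSMUSG00000048163, chr5:113818536-113832644, minus strand). It had 21.6, 26.4 and 19.8 CPM in control adipose tissue and 19.6, 15.7 and 20.5 CPM in OA-AP adipose tissue. The groups overlapped, and the log2 fold change of -0.28 (95% interval -0.63 to 0.07) was not called (edgeR adjusted p = 0.179). In the pancreas it had 14 and 5 counts under control and 14, 13 and 52 under OA-AP, with replicate 3 alone above the control range. The log2 fold change there was 0.70 (95% interval -1.04 to 2.44, edgeR adjusted p = 0.504), and -0.27 without OA-AP replicate 3. Sele and Selp rose in adipose tissue, and the transcript of their shared ligand was not called in either tissue.

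Icam1 encodes ICAM-1, the endothelial ligand of the leukocyte integrins LFA-1 and Mac-1 (ENSMUSG00000037405, chr9:21015985-21028817, plus strand). Its promoter is shown because it was the 1 immunoglobulin superfamily member called.
Icam1 (chr9:21015690-21015989, plus strand): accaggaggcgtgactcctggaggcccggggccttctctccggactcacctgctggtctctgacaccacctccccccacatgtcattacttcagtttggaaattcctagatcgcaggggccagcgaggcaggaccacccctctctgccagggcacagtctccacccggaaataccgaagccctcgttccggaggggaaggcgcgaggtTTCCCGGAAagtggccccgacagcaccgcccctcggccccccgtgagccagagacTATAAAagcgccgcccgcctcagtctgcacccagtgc
It held TTCCCGGAA beginning 42 bases before the RefSeq start and TATAAA 14 bases after it, and that start lay 45 bases before the start of the deposited gene span. In adipose tissue Icam1 had 24.7, 40.4 and 29.4 CPM in the control group and 58.9, 41.3 and 58.7 CPM in the OA-AP group. OA-AP replicate 2 was just above control replicate 2, so the groups did not overlap by a narrow margin. Icam1 rose by 0.75 on the log2 scale (SE 0.22, edgeR adjusted p = 0.0328). This call was lost when control replicate 1, control replicate 3, OA-AP replicate 1 or OA-AP replicate 3 was left out, with adjusted p between 0.0784 and 0.0943. It was 0.97 without control replicate 2, the library with acinar counts (edgeR adjusted p = 0.0134). In the pancreas Icam1 had 18 and 17 counts under control and 32, 37 and 43 under OA-AP, or 1.62 ± 0.106 CPM (SD, n = 2) and 2.02 ± 0.298 CPM (n = 3). In CPM the groups overlapped, and the log2 fold change was 0.32 (95% interval -0.50 to 1.13, edgeR adjusted p = 0.524). The neighbouring genes of the same family, Icam4 (555 bases away) and Icam5, had no count in the pancreas and at most 3 and 7 counts in any adipose library.

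Icam2 encodes ICAM-2, which endothelium carries without activation (ENSMUSG00000001029, chr11:106377656-106388075, minus strand). In adipose tissue it had 22.9, 26.9 and 20.7 CPM in the control group and 18.5, 22.9 and 24.1 CPM in the OA-AP group. The ranges overlapped, and the log2 fold change was -0.11 (95% interval -0.44 to 0.23, edgeR adjusted p = 0.591). In the pancreas it had 18 and 10 counts under control and 25, 11 and 13 under OA-AP, and the log2 fold change of -0.54 (95% interval -1.72 to 0.64) was not called (edgeR adjusted p = 0.446).

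Vcam1 encodes VCAM-1, the ligand of the integrin VLA-4 on monocytes and lymphocytes (ENSMUSG00000027962, chr3:116109949-116129688, minus strand). In adipose tissue it had 28.3, 31.5 and 21.2 CPM in the control group and 23.7, 35.7 and 26.4 CPM in the OA-AP group. The ranges overlapped, with the highest value in OA-AP replicate 2, the library that was lowest of its group for Sele, Selp and Icam1. The log2 fold change was 0.09 (95% interval -0.38 to 0.55, edgeR adjusted p = 0.756). In the pancreas Vcam1 had 11 and 16 counts under control and 27, 12 and 23 under OA-AP, and the log2 fold change was -0.19 (95% interval -1.32 to 0.95, edgeR adjusted p = 0.797).

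Madcam1 encodes MAdCAM-1, the gut addressin bound by the integrin made of alpha4 and beta7 (ENSMUSG00000020310, chr10:79664559-79668537, plus strand). Its promoter is shown for the pair of NF-kB matches it held, GGAAAGCCCC beginning 83 bases before the start and GGAAAGTCCC at 70, beside low counts.
Madcam1 (chr10:79664309-79664608, plus strand): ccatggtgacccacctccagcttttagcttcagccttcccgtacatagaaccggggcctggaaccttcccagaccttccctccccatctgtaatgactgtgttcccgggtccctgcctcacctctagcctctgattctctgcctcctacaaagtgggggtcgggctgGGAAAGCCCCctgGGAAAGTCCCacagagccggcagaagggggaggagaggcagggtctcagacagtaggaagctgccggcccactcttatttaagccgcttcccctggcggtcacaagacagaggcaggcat
In adipose tissue it had 7, 8 and 15 counts under control and 23, 3 and 11 under OA-AP. The groups overlapped, and the log2 fold change of 0.74 had an interval of -0.83 to 2.31 (edgeR adjusted p = 0.416). In the pancreas it had 4 and 3 counts under control and 2, 3 and 0 under OA-AP, and it was not tested. Per scaled library size every OA-AP library was below control, and the ratio of the summed counts was 0.278 with a 95% counting interval of 0.0697 to 1.02.

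Cd44 encodes the hyaluronan receptor CD44, carried by most leukocytes and by many activated tissue cells, which can also bind E-selectin (ENSMUSG00000005087, chr2:102811141-102901665, minus strand). It had 33.0, 35.3 and 23.3 CPM in control adipose tissue and 163.5, 98.0 and 176.8 CPM in OA-AP adipose tissue. All OA-AP libraries were above all control libraries, and the log2 fold change was 2.26 (SE 0.26, edgeR adjusted p = 0.00162). In the pancreas it had 17 and 2 counts under control and 49, 29 and 132 under OA-AP, or 1.46 and 0.199 CPM against 2.57, 1.66 and 6.90 CPM. The groups did not overlap, but both the control libraries and the OA-AP libraries spread widely. The log2 fold change was 2.11 (95% interval -0.02 to 4.24, edgeR adjusted p = 0.114), it ranged from 1.25 without OA-AP replicate 3 to 4.18 without control replicate 1, and DESeq2 called it (adjusted p = 0.0288). Across both tissues, 3 of the 7 members tested in the pancreas had OA-AP libraries all above control, beside 32.9% of all genes (62.3% of all genes did not overlap in either direction), and 5 of the 9 did in adipose tissue, beside 26.4% of all genes (52.4% in either direction).

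Sdc4 encodes syndecan-4, a heparan sulfate proteoglycan of the cell surface at sites of adhesion, which binds chemokines and matrix (ENSMUSG00000017009, chr2:164424247-164443887, minus strand). Its promoter and that of Cd44 are shown because these genes had the highest levels per length in OA-AP adipose tissue.
Sdc4 (chr2:164443139-164443438, minus strand): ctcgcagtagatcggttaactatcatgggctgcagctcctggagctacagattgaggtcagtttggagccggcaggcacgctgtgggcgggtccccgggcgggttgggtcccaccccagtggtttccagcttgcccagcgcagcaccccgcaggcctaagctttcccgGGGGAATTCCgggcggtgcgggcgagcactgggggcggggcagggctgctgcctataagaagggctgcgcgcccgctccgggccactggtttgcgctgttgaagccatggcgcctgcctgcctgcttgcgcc
Cd44 (chr2:102901616-102901915, minus strand): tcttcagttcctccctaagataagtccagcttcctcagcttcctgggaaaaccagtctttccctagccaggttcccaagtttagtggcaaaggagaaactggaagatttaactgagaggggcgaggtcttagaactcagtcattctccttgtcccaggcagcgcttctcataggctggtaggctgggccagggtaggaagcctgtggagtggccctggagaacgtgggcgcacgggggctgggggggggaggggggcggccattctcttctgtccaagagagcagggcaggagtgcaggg
The Sdc4 window held GGGGAATTCC, a match to the NF-kB consensus, beginning 82 bases before the RefSeq start, which lies 699 bases inside the deposited gene span. The Cd44 window held none of the 4 motifs, which says only that these letters are not in this window. In adipose tissue Sdc4 had 59.9, 50.1 and 62.4 CPM in the control group and 811.7, 826.5 and 663.7 CPM in the OA-AP group. The OA-AP values lay close together and far above control, with OA-AP replicate 2 the highest. The rise was 3.74 on the log2 scale (SE 0.16, edgeR adjusted p = 0.000179); by p it ranked 2 of the 15839 genes. In the pancreas Sdc4 had 20.7 and 24.0 CPM in the control group and 73.3, 56.9 and 214.3 CPM in the OA-AP group. All OA-AP libraries were higher, and replicate 3 was far above the others. The log2 fold change was 2.36 (SE 0.71, 95% interval 0.52 to 4.21) and missed the threshold (edgeR adjusted p = 0.0615), while DESeq2 called it (adjusted p = 0.0110). Without OA-AP replicate 3 the log2 fold change was 1.5 and was called (edgeR adjusted p = 1.1e-06). With no filter on low counts it was 2.43 and was not called (edgeR adjusted p = 0.222). Without control replicate 1 or 2 it was 2.26 or 2.47, each from a fit with 1 control library.

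**Figure D2:**
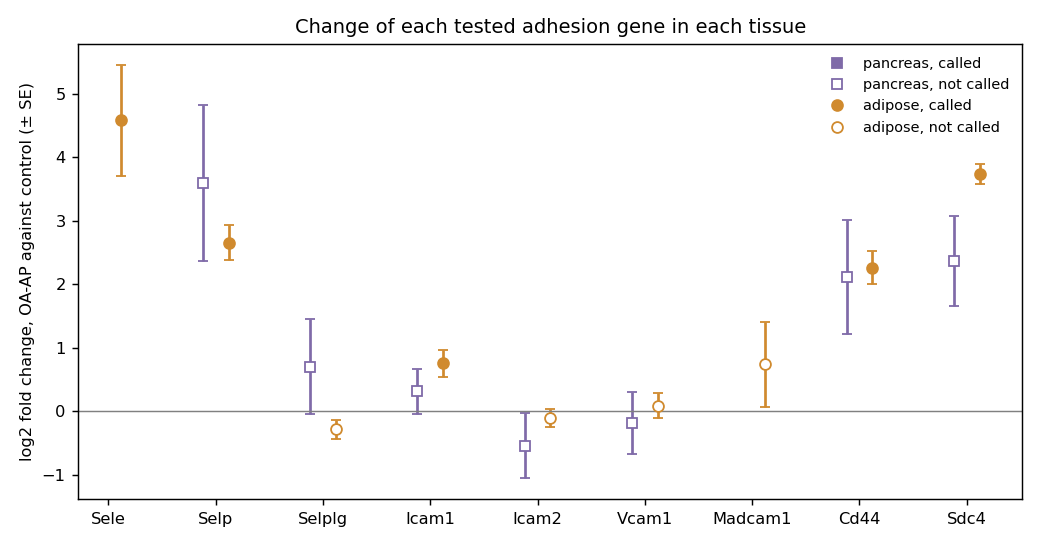
Log2 fold change (OA-AP against control) of each gene with its standard error, in each tissue, with filled points where edgeR called the gene. In adipose tissue Sele (4.58), Sdc4 (3.74), Selp (2.65), Cd44 (2.26) and Icam1 (0.75) are called, and in the pancreas no point is, with Selp (3.59), Sdc4 (2.36) and Cd44 (2.11) the highest.

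Whether the changes differed between tissues was tested with the tissue by condition term over all 11 libraries, which was called at an adjusted p under 0.05. Of all 17046 genes 21.3% were called and of the 8 members with a value none was, with no member at an unadjusted p under 0.05 and none called by DESeq2. Sele had no value because it was at 0 in all pancreas libraries. For Sdc4 the rise in adipose tissue was larger by 1.36 on the log2 scale (SE 0.61, 95% interval -0.004 to 2.73, edgeR adjusted p = 0.150). Without pancreas OA-AP replicate 3 this difference was 2.19 and was called (edgeR adjusted p = 0.000127). For Selp the difference was -1.01, with an interval of -4.72 to 2.69, for Cd44 it was 0.14, with an interval of -2.13 to 2.41, and for Icam1 it was 0.42, with an interval of -0.41 to 1.25. These intervals are wide, so the pancreas libraries do not show that the tissues changed alike.

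The order of the members by level per length (CPM per kb of the deposited gene length) changed with OA-AP in adipose tissue. In control adipose tissue Sdc4 was highest at 22.6 CPM per kb, followed by Icam2 at 12.3 and Icam1 at 7.23, and Sele was lowest at 0.124. Icam1, Selplg, Cd44 and Vcam1 followed each other there with overlapping ranges between neighbours. In OA-AP adipose tissue Sdc4 stood at 301.3 CPM per kb, followed by Cd44 at 21.6, Selp at 13.1, Icam1 at 12.2 and Icam2 at 11.5. Neighbours from Cd44 to Icam2 overlapped there, as did those from Selplg through Vcam1 and Sele to Madcam1. In the pancreas Sdc4 was highest in both groups, at 8.78 and 45.1 CPM per kb, and every other member had a group mean below 0.7 CPM per kb. Icam2 at 0.668 and Icam1 at 0.371 followed in control pancreas without overlap, and in OA-AP pancreas Cd44 (0.548), Icam1 (0.462), Icam2 (0.459), Selp (0.396) and Selplg (0.328) each overlapped the next.

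Bulk RNA cannot tell fewer cells of a type from less RNA per cell, so the members were also set beside cell type markers. The 12 endothelial markers summed to 1769 to 1877 CPM in control and 1919 to 2539 CPM in OA-AP adipose tissue, and edgeR and DESeq2 called none of the 12, with 3 at an unadjusted p under 0.05. As a share of that sum, Sele was 0.0199% ± 0.00877 (SD, n = 3) in control and 0.437% ± 0.389 (n = 3) in OA-AP libraries, and Selp was 0.503% ± 0.0436 and 2.76% ± 1.29. Both remained higher in every OA-AP library on this scale. Icam1 was 1.72% ± 0.408 and 2.49% ± 0.765, and on this scale the groups overlapped, with OA-AP replicate 2 at 1.63% and control replicate 2 at 2.15%. Icam2 was 1.28% ± 0.136 and 1.00% ± 0.124, and every OA-AP library was below every control library, by a narrow margin (1.14% against 1.17%). Vcam1 (1.47% and 1.30%) had a slightly lower group mean in OA-AP, and its groups overlapped.

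The 10 leukocyte markers summed to 361.6 to 546 CPM in control and 462.1 to 709.1 CPM in OA-AP adipose tissue, and 3 of the 10 were called higher. Relative to that sum Cd44 was 7.17% ± 1.23 (SD, n = 3) in control and 25.2% ± 4.16 (n = 3) in OA-AP libraries, and Selplg was 5.32% ± 0.430 and 3.28% ± 0.345. The groups did not overlap for either gene, Cd44 being higher and Selplg lower in OA-AP. The neutrophil markers summed to 17.7 to 36.4 CPM in control and 193.5 to 226.6 CPM in OA-AP adipose tissue, with 8 of 9 tested called higher. The lymphocyte markers summed to 12.9 to 49.5 and 3.47 to 6.62 CPM, with 6 of 9 called lower. The platelet markers summed to 41.7 to 54.6 and 66.1 to 104.2 CPM, with 2 of 5 called higher. Beside these counts, 25.1% of all genes tested in adipose tissue were called in either direction and 12.1% were called higher. The part of these cell types in the levels of Selp, Cd44, Selplg and Sdc4 was not tested.

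In the pancreas the endothelial markers summed to 102.5 to 128.6 CPM in control and 87.4 to 113.5 CPM in OA-AP libraries. Called lower were 2 of 12, Kdr and Emcn, beside 13.5% of all genes. The leukocyte markers summed to 39.2 to 39.3 CPM and 28.1 to 55.4 CPM, with none of the 10 called by edgeR or DESeq2 and 1 at an unadjusted p under 0.05. The neutrophil markers summed to 1.80 to 2.79 CPM in control libraries and to 14.4, 4.69 and 109.7 CPM in OA-AP replicates 1, 2 and 3, with none of the 7 tested called by edgeR, 1 at an unadjusted p under 0.05 and 5 called by DESeq2. The platelet markers summed to 3.59 to 3.86 CPM and 2.06 to 14.1 CPM, with neither of the 2 tested called or under an unadjusted p of 0.05 and with Gp6 and Gp1bb at 0. The lymphocyte markers summed to 0.798 to 1.20 CPM and 0.458 to 1.25 CPM, too low to test. OA-AP replicate 3, the library with the highest neutrophil sum, was also highest in its group for Selp, Selplg, Icam1, Cd44 and Sdc4. As a share of the endothelial sum Selp was 0.167% and 0.0775% in control and 0.781%, 0.746% and 3.41% in OA-AP pancreas, so each OA-AP library was above control on this scale too. Icam1 was 1.51% and 1.32% in control and 1.92%, 2.30% and 1.98% in OA-AP pancreas, also without overlap. Relative to the leukocyte sum Cd44 was 3.71% and 0.509% in control and 8.29%, 5.91% and 12.45% in OA-AP pancreas. Madcam1, with its few counts, was lower without overlap, and Icam2, Vcam1 and Selplg overlapped. The part of neutrophils and platelets in these values was not tested.

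**Figure D3:**
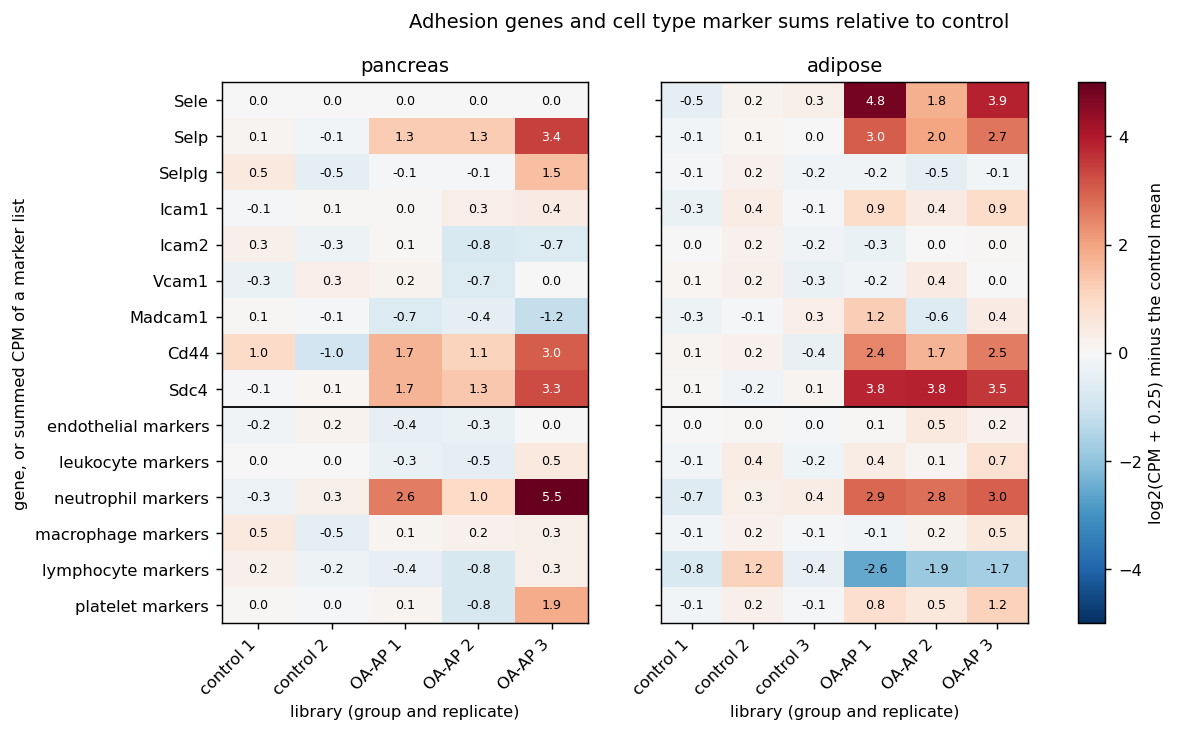
Log2(CPM + 0.25) of each gene, and of the summed CPM of 6 marker lists, minus the mean of the control libraries of the same tissue, for every library. In adipose tissue the neutrophil row is 2.8 to 3.0 in the OA-AP libraries and the endothelial row 0.1 to 0.5, and in the pancreas OA-AP replicate 3 has the highest values in the neutrophil (5.5), Selp (3.4), Sdc4 (3.3) and Cd44 (3.0) rows.

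The integrins are the leukocyte's partners of ICAM-1, VCAM-1 and MAdCAM-1. In adipose tissue 3 of the 10 integrin genes tested rose and 2 fell, with a median log2 fold change of 0.46. Of all genes 25.1% were called there in either direction. Itgam, the alpha chain of Mac-1, rose by 1.24 on the log2 scale (SE 0.11, edgeR adjusted p = 0.000537), from 67.7 ± 4.58 CPM (SD, n = 3) to 159.5 ± 14.0 CPM (n = 3). Itgad rose by 3.51 from a low level of 1 to 5 counts (edgeR adjusted p = 0.00882), and by 2.78 without OA-AP replicate 3. Beside 29.8% of all genes called in the pancreas, 1 of the 6 tested rose there and 1 fell, with a median of -0.48. They were Itgb1, which rose by 0.78 (edgeR adjusted p = 0.0062), and Itgb2, the beta chain shared by LFA-1 and Mac-1, with a log2 fold change of -1.42 (edgeR adjusted p = 0.0361). The call of Itgb1 was lost without either control library, and that of Itgb2 also without OA-AP replicate 1 and when libraries were scaled by their totals alone. Without OA-AP replicate 3 the log2 fold change of Itgb2 was -2.06.

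Of the genes of other endothelial adhesion molecules and selectin partners, 3 of 11 tested rose in adipose tissue and 3 fell. Their median log2 fold change was -0.22, beside 25.1% of all genes called there in either direction. Ackr1, a chemokine-binding protein of venules, rose by 2.04 on the log2 scale (SE 0.28, edgeR adjusted p = 0.00261), and Mcam, an adhesion molecule of endothelium and pericytes, fell by 0.99 (SE 0.13, edgeR adjusted p = 0.00188). In the pancreas 1 of 9 rose and 2 fell, with a median of 0.33, beside 29.8% of all genes called in either direction. The endothelial sialomucins Emcn and Cd34 fell by 1.59 and 1.08 (edgeR adjusted p = 0.0211 and 0.0380), and both calls were lost without either control library, without OA-AP replicate 1 and with library totals alone.

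Of the enzymes that build selectin ligands, 5 of 13 tested rose in adipose tissue and 2 fell, with a median log2 fold change of 0.11, beside 25.1% of all genes called in either direction. Chst1, a Golgi sulfotransferase, fell by 2.55 (SE 0.25, edgeR adjusted p = 0.000829), from 393.2 ± 92.8 CPM (SD, n = 3) to 67.2 ± 17.9 CPM (n = 3). Golph3, a Golgi protein that retains glycosyltransferases, rose by 0.95 (edgeR adjusted p = 0.000653). In the pancreas 1 of 11 rose and 2 fell, with a median of -0.41, beside 29.8% of all genes called in either direction, so the share called was near that of all genes. Gcnt1, which makes the core 2 branch of the sugars on PSGL-1, fell by 2.94 (SE 0.20, edgeR adjusted p = 9.6e-05), from 14.4 ± 0.7 CPM (SD, n = 2) to 1.87 ± 0.129 CPM (n = 3). B4galt1 rose by 1.29 (edgeR adjusted p = 0.0150), a call lost without either control library.

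A further list held genes of endothelial and epithelial junctions together with genes of transmigration. In adipose tissue 2 of its 11 tested genes rose (median log2 fold change 0.38), beside 12.1% of all genes called higher there. In the pancreas 4 of 12 rose (median 0.31), beside 16.2% of all genes, and none of the list was called lower in either tissue. In adipose tissue the called genes were Bst1, a surface enzyme of leukocytes and stroma (2.15 on the log2 scale, edgeR adjusted p = 0.000537) and Cd47 (0.74, edgeR adjusted p = 0.00249), a ligand that takes part in transmigration. The other genes tested there, among them the junction genes Pecam1, F11r, Cdh5 and Tjp1, were not called. In the pancreas F11r, the junctional adhesion molecule JAM-A, rose by 1.85 (SE 0.25, edgeR adjusted p = 0.00168) and Tjp1, a tight junction scaffold, by 1.02 (SE 0.14, edgeR adjusted p = 0.00136).

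Among the other syndecans, Sdc1 rose in both tissues and Sdc2 fell in both. Sdc1, the syndecan of epithelia and plasma cells, had 6.44 and 7.68 CPM in control pancreas and 80.1, 45.2 and 166.4 CPM in OA-AP pancreas. That was 3.79 higher on the log2 scale (SE 0.67, edgeR adjusted p = 0.0120), a call lost without either control library and with no filter on low counts, and 3.11 without OA-AP replicate 3. In adipose tissue it had 14.95, 17.6 and 19.4 CPM in the control group and 35.7, 23.0 and 40.1 CPM in the OA-AP group, a rise of 0.93 (edgeR adjusted p = 0.0148) that was lost without control replicate 1.

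Sdc2 fell by 1.71 in the pancreas (SE 0.32, edgeR adjusted p = 0.00545) and by 0.59 in adipose tissue (SE 0.12, edgeR adjusted p = 0.0092). In the pancreas that call was lost without either control library, and in adipose tissue, where the fold lies at the threshold, without control replicate 1 or 3, without OA-AP replicate 1 or 3, and with DESeq2 or its size factors. Sdc3 was called in neither tissue, with log2 fold changes of -0.46 and -0.14 (edgeR adjusted p = 0.289 and 0.542). In the whole list of syndecans, hyaluronan enzymes and sheddases 4 of 15 tested rose and 3 fell in adipose tissue (median log2 fold change 0.27), and 6 of 12 rose and 1 fell in the pancreas (median 0.72). Beside this, 25.1% of all genes were called in adipose tissue (12.1% higher) and 29.8% in the pancreas (16.2% higher). Adam8, a protease that sheds adhesion molecules from leukocytes, rose in adipose tissue by 2.82 (SE 0.16, edgeR adjusted p = 0.000179), from 9.99 ± 1.59 CPM (SD, n = 3) to 70.3 ± 9.52 CPM (n = 3), and Msn rose by 1.11 (edgeR adjusted p = 0.00279). In the pancreas Hyal2, which cleaves hyaluronan, rose by 1.80 (SE 0.20, edgeR adjusted p = 0.000643).

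The genes whose levels were most like those of a member over the 11 libraries are given as a description, since all of them share the tissue difference and the libraries. For Sdc4 they were Cxcl5 (Pearson r = 0.98), Eif4a1 (0.97) and Il1f9 (0.97), for Selp B430306N03Rik, Ccr1 and D1Ertd622e (each 0.99) and for Sele Uap1 (0.99), Zbtb38 (0.98) and Gm42428 (0.97). For Cd44 they were Tlr13 and Rac1 (each 0.99) and Cd53 (0.98), and for Icam1 Hprt, Tnfrsf1b and Akap13 (each 0.99). For Icam2 they were Hspa12b, Sgce and Mpc1 (each 0.99), for Vcam1 Pip4k2a, Cxcl9 and Apol6 (each 0.99), and for Selplg 3110053B16Rik (0.99), Adam19 and D630044L22Rik (each 0.98). Madcam1, with its low counts, had Ank1 (0.95), Gpr180 (0.90) and Plcb1 (0.87).

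**Figure D4:**
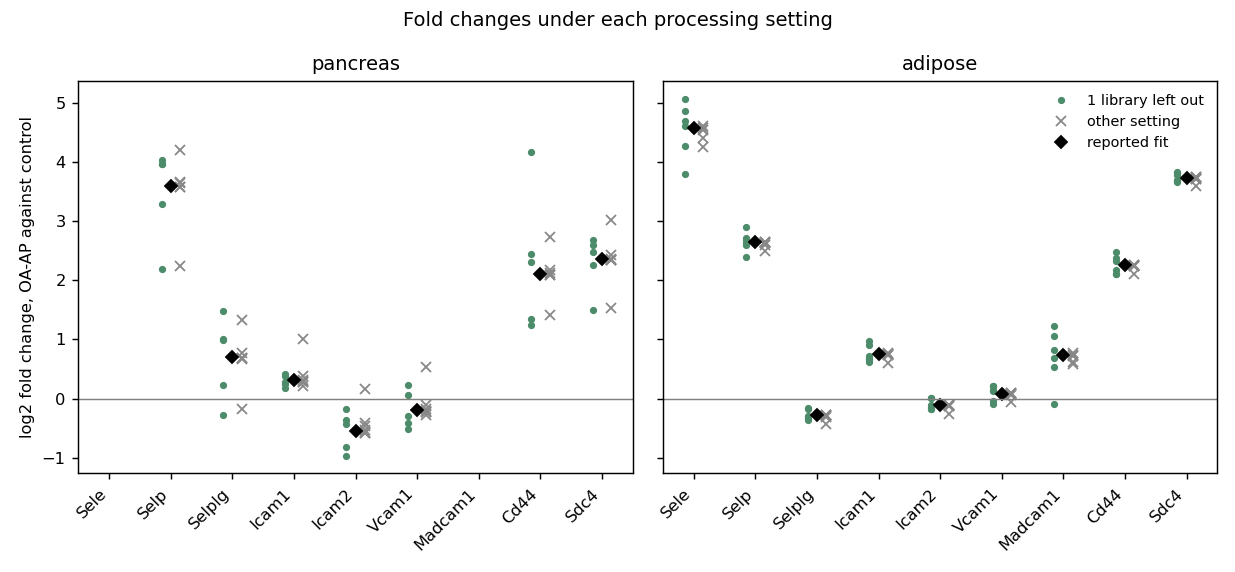
Log2 fold change (OA-AP against control) of each gene in both tissues, with the reported fit as a black diamond, fits that leave out 1 library as green points and the other processing settings as grey crosses. In adipose tissue all values of Sele, Selp, Icam1, Cd44 and Sdc4 lie above 0, from 0.59 for Icam1 to 5.07 for Sele, and in the pancreas Selp (2.19 to 4.2), Cd44 (1.25 to 4.18) and Sdc4 (1.5 to 3.02) spread more widely.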

How the data were processed

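RNA of pancreas and epididymal adipose tissue was sequenced as paired-end libraries. The authors trimmed the reads with Trim Galore 0.6.6, checked them with fastp 0.20.1, mapped them to GRCm38 with STAR and counted them with featureCounts 2.0.1, and they deposited raw counts per gene for each tissue. The annotation release and the strand setting of the counting are not given in the sources used here. Gene coordinates and lengths came from the deposited pancreas table.

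Low genes were dropped by filterByExpr, TMM factors scaled the libraries, and each tissue had its own fit with the robust quasi-likelihood test of edgeR 4.0.16 in R 4.3.3. Called genes had an adjusted p under 0.05 over all genes tested and changed at least 1.5-fold. The paper used the same cutoffs with DESeq2, which is an alternative here. The labels do not say that replicates were separate animals, so p-values measure the spread between these samples, which may be technical. Replicates differed by more than counting noise. Counting intervals are exact 95% intervals of the ratio of summed counts.

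The 9 members, the 5 pathway lists and the 11 marker lists were chosen with earlier results of these data known. Named from each pathway list and tissue were up to 2 called genes with the smallest p, and Icam4, Icam5, Sdc1, Sdc2 and Sdc3. A further gene under this rule is not reported here. For pattern likeness, 3 genes per member were named by Pearson r of log2 CPM with a prior count of 2. The alternatives were DESeq2 1.42.0, edgeR with the DESeq2 size factors, library totals alone, TMM factors without 47 acinar genes, no filter or at least 10 counts in every library, a fold of 2 or none, each library left out and a replicate block. Promoters came from RefSeq. Protein sequences were not analysed here.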

Additional observations from a re-analysis of the deposited data

Results flagged for a closer look

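Among the syndecans, the change with OA-AP differed between the tissues for Sdc1 and for Sdc2 by the tissue by condition term of edgeR over all 11 libraries. For Sdc1 the change in adipose tissue minus that in the pancreas was -2.88 on the log2 scale (SE 0.65, adjusted p = 0.0114), since it rose by 3.79 in the pancreas and by 0.93 in adipose tissue. Without pancreas OA-AP replicate 3 it was -2.24 (edgeR adjusted p = 0.00411), and without pancreas control replicate 1 it was -2.76 and was no longer called (edgeR adjusted p = 0.0583). For Sdc2 the difference was 1.12 (SE 0.26, adjusted p = 0.0102), as it fell by 1.71 in the pancreas and by 0.59 in adipose tissue. It was 0.28 and not called with library totals alone (edgeR adjusted p = 0.477), a scaling that moves the median of all genes, and 0.99 without pancreas OA-AP replicate 3 (edgeR adjusted p = 0.0202).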

How the results depend on the processing

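Of the member fold changes and tissue differences recomputed under the alternatives, 270 kept direction and side of the threshold, 20 became significant, 6 lost significance and 23 changed sign, each of these a fold change or tissue difference that was not called in the reported fit. In the pancreas the number of members called, 0, became 3 with DESeq2, 3 with library totals alone and 3 with the replicate block (Selp, Cd44 and Sdc4 each time), 2 with no filter (Cd44 and Selp), 1 with at least 10 counts in every library (Sdc4) and 0 to 2 with 1 library left out. It was 2 (Selp and Sdc4) without any of the 3 OA-AP libraries. In adipose tissue the number was 5 and lay between 4 and 5 under all alternatives run. Icam1 was lost with library totals alone (0.59, edgeR adjusted p = 0.0605) and with the replicate block (0.76, edgeR adjusted p = 0.0770), and Sele could not be tested with at least 10 counts in every library. Members whose change differed between tissues numbered 0, and 1 with library totals alone (Selplg, -1.78, edgeR adjusted p = 0.0489). That number was 0 to 1 with a library left out, the 1 being Sdc4. Within a tissue, the deviations of same-numbered control and OA-AP libraries from their group means correlated at -0.16 to 0.06. With so few libraries such correlations cannot settle a pairing. Whether same-numbered pancreas and adipose libraries came from the same mouse was not tested.

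The sign changed for Selplg in the pancreas with the replicate block (-0.18). It changed with library totals alone for Icam2 (0.17) and Vcam1 (0.53) in the pancreas and for Vcam1 in adipose tissue (-0.061), and for the tissue differences of Icam1 (-0.42), Icam2 (-0.41), Vcam1 (-0.59) and Cd44 (-0.65). With 1 library left out the ranges crossed 0 for Selplg (-0.27 to 1.48) and Vcam1 (-0.52 to 0.23) in the pancreas, for Icam2 (-0.18 to 0.0092), Vcam1 (-0.10 to 0.22) and Madcam1 (-0.093 to 1.22) in adipose tissue, and for the tissue differences of Selp (-1.49 to 0.35), Vcam1 (-0.14 to 0.59) and Cd44 (-1.98 to 0.96). Library totals alone moved the median log2 fold change of all genes from 0.04 to 0.75 in the pancreas and from -0.01 to -0.17 in adipose tissue. The share of called genes that were higher went from 54.5% to 92.0% and from 48.1% to 32.1%. Apart from this scaling, the cause of these changes was not tested. In the pancreas 2 control libraries and under 20 counts per control library for every member but Sdc4 limit what can be shown.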

Other observations

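Has1, which encodes a hyaluronan synthase and so makes the ligand of CD44, was picked for mention after its values were seen. In the pancreas it had no count under control and 15, 16 and 19 counts under OA-AP, and edgeR called it higher (adjusted p = 0.00658), a call lost without control replicate 1. In adipose tissue it had 46, 25 and 62 counts under control and 1119, 112 and 358 under OA-AP, a rise of 4.05 on the log2 scale (edgeR adjusted p = 0.0136) that was lost with no filter on low counts and was 2.85 without OA-AP replicate 1. OA-AP replicate 2 was the lowest of its group for Has1 in adipose tissue, as it was for Sele and Selp.

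The remaining marker lists were counted in the same way, beside 25.1% of all genes called in adipose tissue and 29.8% in the pancreas. Of 7 stellate and fibroblast genes 5 fell in adipose tissue, namely Col1a1, Col1a2, Col3a1, Dcn and Lum, where their sum was 3359 to 4242 CPM in control and 2028 to 2497 CPM in OA-AP libraries. In the pancreas edgeR and DESeq2 called none of the 7, with 1 at an unadjusted p under 0.05. Of 10 macrophage genes 3 rose and 1 fell in adipose tissue, and 1 fell in the pancreas. Acinar genes fell in 8 of 10 cases in the pancreas, and ductal genes in 2 of 6. In adipose tissue 1 of 6 genes of the ductal list rose, Spp1, while Krt19, Sox9, Cftr, Muc1 and Krt7 were not called. Of 7 adipocyte genes 1 rose and 1 fell there. Mesothelial genes were called by edgeR in neither tissue, with 3 of 7 at an unadjusted p under 0.05 and 1 called by DESeq2 in each.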
